A study of Mus musculus with 26 samples.

Results

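The mitochondrially encoded genes are the 37 genes of the mouse mitochondrial chromosome, and they were chosen as all genes whose symbol starts with mt- in the table of counts. They are 37 of the 55291 genes in the table and are also all the genes that it places on chromosome M. There are 13 mRNA genes, 2 rRNA genes and 22 tRNA genes among them, and all 37 have the same start, end and strand in GENCODE M21 (GRCm38, the assembly also called mm10). They were measured by poly(A)-selected RNA-seq in R1 mouse embryonic stem cells (ESCs), a line kept here on gelatin with the cytokine LIF, in 26 libraries that form 13 groups of 2. The controls were untreated ESCs and ESCs given DMSO, the solvent of both drugs. RA cells received 0.53 µM retinoic acid for 48 h, and PlaB cells received 4 nM pladienolide B, an inhibitor of the spliceosome, for 4 days. Doxycycline at 4 µg/mL for 24 h was given to switch on transgenes for Zscan4 (Zscan4 OE), for Dux (Dux OE) or for a Dux variant (DuxR70A OE). Dux KD cells, which express a short hairpin RNA against Dux, were given RA or PlaB or are labelled as overexpressing Zscan4. SE KO cells, which lack the super-enhancer at the Tdpoz genes, were given RA or PlaB or made to overexpress Dux. For the Dux KD Zscan4 OE libraries the labels give no doxycycline and no time, and for 1 SE KO RA library the genotype label reads wild type while its title reads SE KO. Both were grouped by title.

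Mouse mitochondrial DNA is read from promoters on both strands by the polymerase Polrmt together with Tfam, and the long precursor RNAs are cut at the tRNAs that lie between most of the other genes. The mRNAs encode core subunits of the respiratory chain and of ATP synthase: Nd genes for complex I, Cytb for complex III, Co genes for complex IV, and Atp6 and Atp8 for ATP synthase. Most of these mRNAs receive a short poly(A) tail from Mtpap, whereas the tRNAs receive CCA at their end. The counts of the tRNA and rRNA genes are of whatever RNA passed the poly(A) selection of these libraries.

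Part of this chromosome has a copy in the nuclear genome, and the copy decides what the counts of several genes can show. Over 4653 bases of chromosome M (chrM:6390-11042) the annotated pseudogenes on chromosome 1 (chr1:24611535-24616197, 4663 bases, mm10) follow the mitochondrial genes in the same order. They hold 7 unprocessed pseudogenes that match their mitochondrial gene at 99.7% or more of the aligned bases, and 5 of the 7 match without any mismatch. The stretch contains 6 whole mRNA genes (mt-Co2, mt-Atp8, mt-Atp6, mt-Co3, mt-Nd3 and mt-Nd4l) and 5 tRNA genes, and it reaches into mt-Co1 and mt-Nd4. The 6 mRNA genes are called the copied genes here, and the other 7 (mt-Nd1, mt-Nd2, mt-Co1, mt-Nd4, mt-Nd5, mt-Nd6 and mt-Cytb) the uncopied genes, although mt-Co1 and mt-Nd4 are copied in part. Of mt-Atp8 only 43 of 204 bases, those shared with mt-Atp6, matched an annotated copy on chromosome 1 at 99% identity or more. The rest of mt-Atp8 and the 5 tRNA genes are counted in by their position alone. The beginnings of mt-Co2 and of its copy Gm28661, and of mt-Nd3 and its copy Gm28438, are shown because a read from either place is almost the same. The capital marks the only mismatch between mt-Nd3 and its copy over 345 aligned bases, T3C, counted from the first base of the gene with the mitochondrial base first.
mt-Co2: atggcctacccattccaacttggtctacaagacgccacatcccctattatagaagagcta
Gm28661: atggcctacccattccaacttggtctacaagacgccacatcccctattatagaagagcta
mt-Nd3: atTaacctgtacactgttatcttcatta
Gm28438: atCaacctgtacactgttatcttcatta

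In the deposited counts the copies held a large part of what was assigned to each pair. The copy's percentage of the pair ranged over the 26 libraries from 22.6% to 49.0% for mt-Co2 (median 41.3%), from 41.6% to 72.9% for mt-Atp6 (58.3%), from 42.0% to 77.9% for mt-Co3 (50.5%), from 36.5% to 85.6% for mt-Nd4l (58.2%) and from 51.8% to 98.2% for mt-Nd3 (84.3%). For the genes copied only in part it was 0.0452% to 1.68% for mt-Co1 and 0.283% to 9.79% for mt-Nd4. Values of the copied genes are therefore uncertain. For mt-Nd1, mt-Nd2, mt-Nd5, mt-Nd6 and mt-Cytb no annotated copy of at least 99% identity was found, although mt-Nd2 and mt-Nd5 have partial copies of lower identity elsewhere. Copies were sought only among the transcripts of GENCODE M21, so copies without annotation would be missed. How multi-mapping reads were assigned is not given in the sources used here. A sum of gene and copy holds only the reads assigned to either place, so it would lack reads left out for matching both. Values with the copies added in share this limit.

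Other features of the sequences bear on how reads are counted. mt-Atp8 and mt-Atp6 overlap by 43 bases, mt-Nd4l and mt-Nd4 by 7, and mt-Nd5 and mt-Nd6, which lie on opposite strands, by 14. Since no strand setting is given in the sources used here, reads from mt-Nd6 and from the 8 tRNA genes on the minus strand cannot be told apart from antisense RNA of the other strand. The coding length of 10 mRNA genes ends in a stop codon, while mt-Co3, mt-Nd4 and mt-Cytb have a length that is no multiple of 3 and end in the base T, shown in capitals, where the poly(A) tail is known to complete the stop codon.
mt-Co3, last bases: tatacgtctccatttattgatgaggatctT
mt-Nd4, last bases: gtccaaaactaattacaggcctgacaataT
mt-Cytb, last bases: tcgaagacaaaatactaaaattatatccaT

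The 26 libraries held 14401452 to 39402840 counts (median 18276934), so that 3 counts corresponded to 0.0761 to 0.208 CPM. No library duplicated its replicate, with a chi-square per degree of freedom of 1.55 to 30.2 between replicates over all genes. The SE KO PlaB (30.2) and Dux KD Zscan4 OE (26.1) replicates differed most. Over the mitochondrial genes alone, with the expected split taken from the library totals, this measure was higher in every group. It ran from 14.98 in Dux KD RA to 1985 in SE KO PlaB. It was 385.6 in Dux KD Zscan4 OE, 374.1 in SE KO Dux OE and 197.8 in RA. The measure grows with the number of counts at the same relative difference, and many of these genes have high counts. Higher values here therefore do not show that replicates differed more in relative terms. The labels do not say whether replicates are separate cultures, so the p-values measure the spread between these libraries, which may be technical. The 5 ESC markers (Pou5f1, Sox2, Nanog, Zfp42 and Esrrb) had a summed level of 4427 to 4592 normalised CPM in DMSO and 1644 to 1650 in PlaB, where Zfp42 was higher (1251 against 945.8, group means) while Sox2 (26.2 against 592) and Nanog (74.1 against 911) were lower, and the 5 markers of 2C-like cells rose from 2.96 to 4.20 in DMSO to 6971 to 6984 in PlaB. Duxf3, the annotated Dux gene, was at 8.73 ± 0.734 normalised CPM (mean ± SD, n = 2) in PlaB and 0.0295 ± 0.0417 in Dux KD PlaB, and at 2.45 ± 0.416 in RA and 0.636 ± 0.400 in Dux KD RA. It was at 3.62 ± 0.541 in Dux OE and 0.0934 ± 0.132 in ESC, but had no counts in the libraries labelled DuxR70A OE. Zscan4c was at 101.4 ± 2.15 in Zscan4 OE, 5.93 ± 0.284 in ESC and 0.953 ± 0.247 in the libraries labelled Dux KD Zscan4 OE. The counts of these genes thus show no transgene in either of the groups labelled DuxR70A OE and Dux KD Zscan4 OE, whose names are used here as labels only, and whether reads of a transgene are counted under them is not given in the sources used here. The counts are of bulk RNA, in which less mitochondrial RNA in each cell and a different mix of cells cannot be told apart.

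Counted together, mitochondrial mRNAs made up 2.14% to 4.60% of the counts in 12 of the 13 groups and far less in PlaB. The share was 3.05% ± 0.0460 (mean ± SD, n = 2) in ESC, 3.02% ± 0.0196 in DMSO and 0.688% ± 0.0446 in PlaB, where the 2 libraries had 0.656% and 0.719%. The mRNA share in PlaB was 4.40-fold lower than in DMSO, while the share of the 2 rRNA genes was 8.89-fold higher and that of the 22 tRNA genes 10.1-fold lower. The rRNA genes held 0.0890% ± 0.00477 in DMSO and 0.791% ± 0.0623 in PlaB, and the tRNA genes 0.0101% ± 0.000925 in DMSO and 0.00101% ± 0.000131 in PlaB. The summed shares of the 3 classes thus moved apart in the same libraries, and the share of all 37 genes fell by less than that of the mRNAs, 2.11-fold. The rise of the rRNA share was that of mt-Rnr2. The share of the other rRNA gene, mt-Rnr1, was 2.17-fold lower in PlaB (0.0156%) than in DMSO (0.0338%).

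PlaB on Dux KD or SE KO cells did not give this low mRNA share. It was 2.83% ± 0.0425 in Dux KD PlaB and 4.60% ± 0.540 in SE KO PlaB, the highest of all groups, although its 2 libraries differed (4.98% and 4.22%). With RA the mRNA share was 3.33% ± 0.271, against 2.41% ± 0.0245 in Dux KD RA and 2.62% ± 0.106 in SE KO RA, and neither pair of libraries overlapped with RA. Among the transgene groups it was 2.96% ± 0.157 in Dux OE, 3.11% ± 0.109 in SE KO Dux OE, 2.48% ± 0.00536 in Zscan4 OE, 3.05% ± 0.235 in Dux KD Zscan4 OE and 2.14% ± 0.0268 in DuxR70A OE. Ordered by mean, PlaB stood lowest, then DuxR70A OE, Dux KD RA and Zscan4 OE, whose libraries did not overlap with those of the next group. From Dux OE to RA in this order, each group overlapped with its neighbour, whereas SE KO PlaB stood above all.

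The rRNA share was lowest in DuxR70A OE (0.0581% ± 0.00907), Dux KD RA (0.0589% ± 0.000678) and ESC (0.0625% ± 0.00117), and after PlaB it was highest in SE KO PlaB (0.204% ± 0.00326), SE KO Dux OE (0.178% ± 0.0175) and RA (0.176% ± 0.0121). The tRNA share was highest in RA (0.0178% ± 0.00144), SE KO RA (0.0137% ± 0.00147) and SE KO PlaB (0.0122% ± 0.00179). It was lowest in PlaB and in SE KO Dux OE (0.00120% ± 0.0000326). The shares are given as descriptions, with no test.

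**Figure D1:**
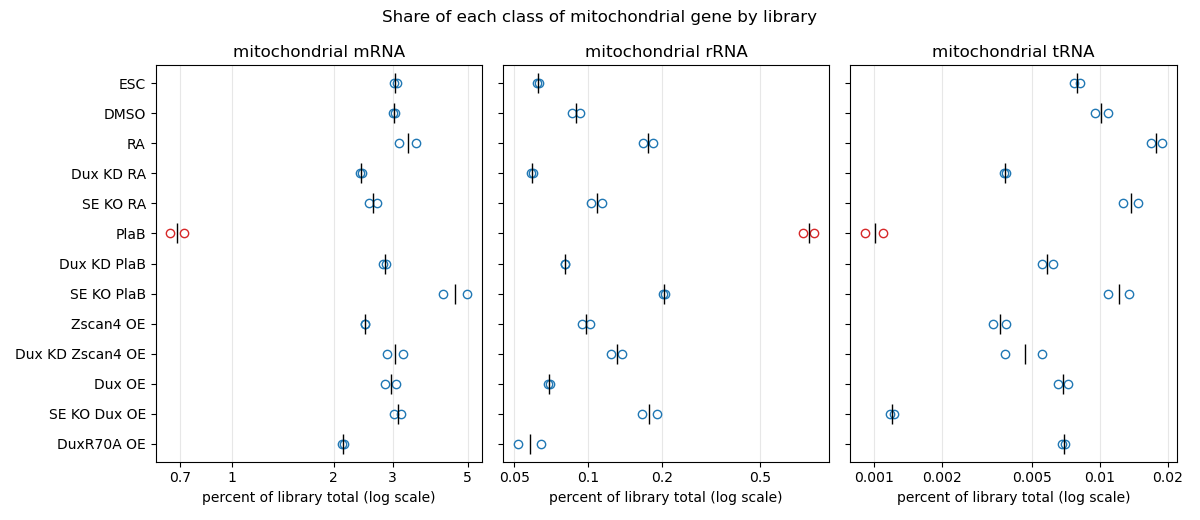
Percentage of each library total on the 13 mRNA, 2 rRNA and 22 tRNA genes (1 panel each, log axes), with the 13 groups as rows. Circles are libraries, vertical bars are group means and PlaB is red: its 2 libraries have the lowest mRNA share and the highest rRNA share of all 26.

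The effect of PlaB was compared with DMSO gene by gene. Of the 13 mRNAs, 11 were called lower and none higher, and of the rRNAs mt-Rnr1 was called lower and mt-Rnr2 higher. Of the 15 tRNA genes with enough counts to be tested, 8 were called lower and 2 higher. A gene was called where edgeR's quasi-likelihood test gave a Benjamini-Hochberg adjusted p under 0.05 and the log2 fold change was 1 or more in either direction. Of the 20953 genes tested, 58.9% were called in this comparison (32.3% higher and 26.6% lower), and the share of mitochondrial mRNAs called lower is to be read against that. The median log2 fold change of the 13 mRNAs was -3.51, against 0.22 over all genes tested.

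mt-Cytb, the complex III subunit, was at 217 and 193 normalised CPM (counts scaled to library size with TMM factors) in the PlaB libraries and at 4247 and 4126 in the DMSO libraries. Its log2 fold change was -4.35 ± 0.18, adjusted p = 2.82e-18 (± SE, as for all log2 fold changes here), the largest fall among the uncopied mRNAs. mt-Co1, the catalytic subunit of complex IV and the mRNA with the most counts, was at 3265 and 3641 in PlaB and 13668 and 13876 in DMSO, which is 3.99-fold lower (adjusted p = 1.27e-16). The complex I subunits fell to unequal degrees. The values without overlap between groups were 586 and 574 against 5937 and 5949 for mt-Nd1, 345 and 393 against 2685 and 2748 for mt-Nd2, 385 and 442 against 2732 and 2746 for mt-Nd5 and 56.5 and 54.6 against 626 and 636 for mt-Nd6. Their log2 fold changes were -3.36, -2.88, -2.73 and -3.51. mt-Nd4 moved least among the uncopied genes, with 1044 and 1038 in PlaB and 1641 and 1644 in DMSO and a log2 fold change of -0.66 ± 0.08, adjusted p = 2.62e-08, short of the fold asked of a call.

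The copied genes were at very low levels in PlaB. mt-Co2, another complex IV subunit, was at 2.13 and 1.86 in PlaB and 229 and 334 in DMSO, with a log2 fold change of -7.14 ± 0.23. mt-Co3 was at 1.06 and 2.72 against 114 and 141 and mt-Atp6 at 8.28 and 8.48 against 122 and 134. mt-Nd3 had 7 and 2 counts and mt-Nd4l 4 and 5 counts in the 2 PlaB libraries. With each gene and its chromosome 1 copy added together, the log2 fold changes were -7.06 for mt-Co2, -5.74 for mt-Co3, -4.71 for mt-Atp6, -4.52 for mt-Nd3 and -5.53 for mt-Nd4l. The counts assigned to the pairs were thus lower, as were those of the genes. mt-Atp8, the shortest mRNA gene, was at 1.06 and 0.907 in PlaB and 1.47 and 1.92 in DMSO and did not pass the test (-0.78 ± 0.48, adjusted p = 0.142).

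The rRNAs went in opposite directions. mt-Rnr2, the 16S rRNA of the large ribosomal subunit, was at 6584 and 7248 normalised CPM in PlaB and 610.2 and 567 in DMSO, a log2 fold change of 3.55 ± 0.11, adjusted p = 4.36e-21. mt-Rnr1, the 12S rRNA of the small subunit, was at 150.1 and 128 against 373 and 346, a log2 fold change of -1.37 ± 0.14. The count of mt-Rnr2 per count of mt-Rnr1 was 43.9 and 56.7 in the PlaB libraries and lay between 0.960 and 6.02 in the other 24 libraries, with the highest of these in SE KO PlaB. The rRNA count per mRNA count was 1.14 and 1.16 in PlaB, and 0.0307 and 0.0282 in DMSO. The 2 rRNA genes are neighbours on the same strand, separated by the gene of mt-Tv, a tRNA that had at most 3 counts in any library.

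RNAs that usually carry no poly(A) tail were more abundant in the PlaB libraries too. The summed level of Rn7sk, Rmrp, Rpph1, Terc, Rny1 and Rny3 was 10.9 ± 0.687 normalised CPM in PlaB and 1.36 ± 0.0854 in DMSO. The 98 Snord genes summed to 56.4 ± 1.41 against 12.5 ± 0.931 and 9 Hist1h genes to 26.1 ± 1.47 against 2.06 ± 0.0496. In Dux KD PlaB the 3 sums were 1.10 ± 0.0310, 14.2 ± 0.982 and 1.90 ± 0.103, and in SE KO PlaB 4.41 ± 0.290, 19.4 ± 3.13 and 1.54 ± 0.270. The first sum was also high in the libraries labelled Dux KD Zscan4 OE (26.4 ± 9.94), in Dux OE (19.9 ± 2.10), in SE KO Dux OE (12.1 ± 0.2003) and in Zscan4 OE (9.35 ± 0.972). The mitochondrial rRNA share of these groups was 0.131%, 0.0694%, 0.178% and 0.0978%, in the same order. How far the recovery of untailed RNA bears on the rRNA values was not tested.

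Of the 22 tRNA genes 15 had enough counts to be tested, and 8 of these were called lower in PlaB. mt-Tp, the tRNA gene with the highest mean level over all libraries, was at 1.36 and 1.77 normalised CPM in PlaB and 38.4 and 52.7 in DMSO, a log2 fold change of -4.86 ± 0.24, adjusted p = 2.79e-16. mt-Th, the tRNA gene next to mt-Nd4, had 0 and 4 counts in the PlaB libraries and 383 and 463 in the DMSO libraries. mt-Tc fell from 10.9 and 10.8 to 0.484 and 0.771 and mt-Tn from 11.4 and 10.2 to 1.65 and 1.27. mt-Tl1, mt-Tl2, mt-Ts2 and mt-Tw were also called lower. The genes called higher were mt-Tq and mt-Tm, with 4 and 15 and with 10 and 15 counts in PlaB, so these calls rest on few reads.

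**Figure D2:**
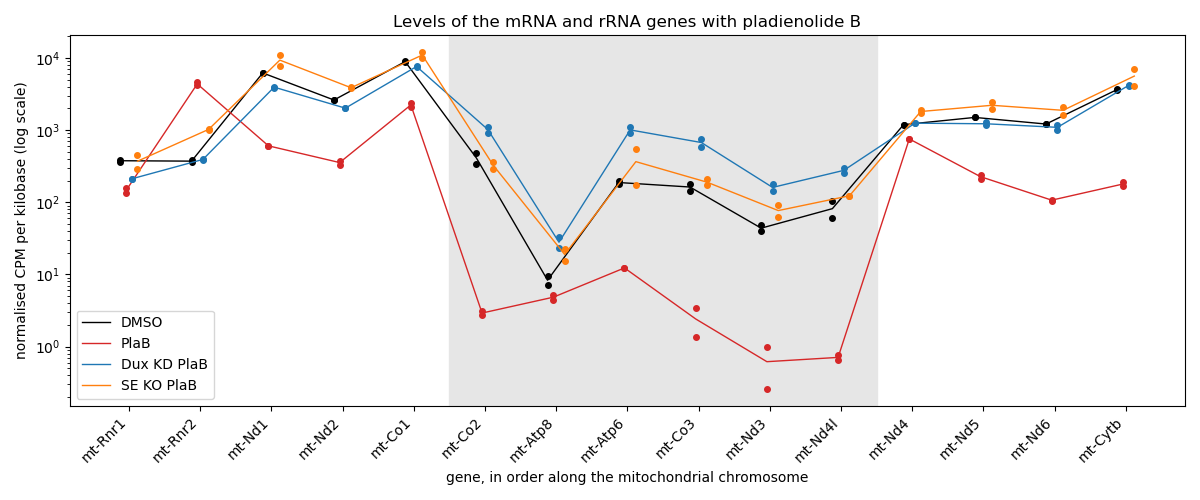
Normalised CPM per kilobase (log axis) of the rRNA and mRNA genes in their order along the chromosome, with a point per library and a line through the means of DMSO, PlaB, Dux KD PlaB and SE KO PlaB; the 6 copied genes are shaded. PlaB lies lowest at every mRNA gene and highest at mt-Rnr2.

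With PlaB given to Dux KD or SE KO cells, the mitochondrial mRNAs stood well above their level in PlaB. In Dux KD PlaB 12 of 13 were called higher and none lower against PlaB, where 54.9% of all genes tested were called (26.1% higher and 28.8% lower). In SE KO PlaB all 13 were called higher, and 52.0% of all genes tested were called (25.9% higher and 26.1% lower). Both comparisons share the PlaB libraries. The series holds no Dux KD or SE KO group labelled as free of drug and transgene, and none with a control hairpin. A difference that these cells had before treatment thus cannot be told apart from their response to it. mt-Cytb was at 4899 and 4635 normalised CPM in Dux KD PlaB and at 8096 and 4757 in SE KO PlaB, and mt-Co1 at 11999 and 11582 and at 15336 and 18624. The log2 fold changes against PlaB were 4.54 ± 0.18 and 4.97 ± 0.18 for mt-Cytb and 1.77 ± 0.09 and 2.30 ± 0.10 for mt-Co1, in that order. mt-Nd4 had the smallest difference in both, 0.73 ± 0.08 in Dux KD PlaB, which was not called, and 1.26 ± 0.08 in SE KO PlaB. mt-Rnr2 was called lower in both (-3.48 ± 0.10 and -2.09 ± 0.10), at 624 and 619 and at 1664 and 1579 normalised CPM. Of the 15 tRNA genes, 9 were called higher and 2 lower in Dux KD PlaB, and 9 higher and none lower in SE KO PlaB. The levels of mt-Tp, 22.9 and 20.7 and 36.3 and 50.8, stood above both PlaB libraries.

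These groups were also set against DMSO, a comparison chosen after seeing the data. In Dux KD PlaB the 6 copied mRNAs were called higher than in DMSO and no uncopied mRNA was called, and 11.7% of all genes tested were called. mt-Co2 was at 633 and 766 and mt-Atp6 at 625 and 748, against 229 and 334 and 122 and 134 in DMSO, whereas mt-Nd1 was at 3841 and 3709 against 5937 and 5949. Among the rRNAs mt-Rnr2 differed from DMSO by 0.08 ± 0.10 and mt-Rnr1 by -0.83 ± 0.14, neither called. In SE KO PlaB the mRNA called against DMSO was mt-Atp8 (1.18 ± 0.41), where 28.1% of all genes tested were called, and mt-Rnr2 remained higher than in DMSO (1.46 ± 0.10, adjusted p = 1.07e-12). mt-Nd1 (10479 and 7418) and mt-Cytb (8096 and 4757) were higher in SE KO PlaB replicate 1 than in replicate 2, in the direction opposite to mt-Co1 (15336 and 18624). With either one of the SE KO PlaB libraries left out, 13 mRNAs were called against PlaB.

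In RA no mitochondrial mRNA passed the fold of a call against DMSO, while 7 of the 15 tested tRNA genes rose. No mRNA of 13 was called by edgeR, and 31.0% of all genes tested were called (20.6% higher and 10.4% lower). An adjusted p under 0.05 was reached by 4 mRNAs in edgeR, and DESeq2 called 0. With untreated ESCs in place of DMSO as the control, 5 mRNAs were called, all higher. The log2 fold changes ran from -0.53 for mt-Atp6 to 0.39 for mt-Nd4l. mt-Co1 was at 12401 and 13968 normalised CPM in RA, overlapping the DMSO libraries (13668 and 13876). mt-Nd2 (3198 and 3847) stood above DMSO (2685 and 2748) and mt-Cytb (3168 and 3241) below (4247 and 4126), with log2 fold changes of 0.37 and -0.39. mt-Rnr2 was at 1105 and 1217 against 610.2 and 567, and its log2 fold change of 0.98 ± 0.10, adjusted p = 1.65e-09 fell just short of a call.

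Among the 15 tRNA genes, 7 were called higher in RA and 1 lower. mt-Tn was at 28.8 and 32.8 in RA and 11.4 and 10.2 in DMSO (1.51 ± 0.25, adjusted p = 1.11e-05), and mt-Tc at 27.2 and 31.9 against 10.9 and 10.8 (1.44 ± 0.17). mt-Tw (5.90 and 6.98 against 2.10 and 2.36) and mt-Ty were called higher as well. These 4 lie with mt-Ta in a row between mt-Nd2 and mt-Co1 (chrM:4950-5326), of which mt-Tn, mt-Tc and mt-Ty are on the minus strand. The other tRNA genes called higher were mt-Te, mt-Tq and mt-Tm. mt-Tq had 0 and 0 counts in DMSO and 8 and 12 in RA, at least 2.72-fold higher against a floor of 3 counts per library. mt-Tp did not reach the fold asked of a call (0.51 ± 0.17, adjusted p = 0.00985), and mt-Tl2 was called lower (-1.06 ± 0.33). Without DMSO replicate 1, 5 tRNA genes were called, all higher. Other groups of genes moved in the same libraries. The summed level of the 6 untailed RNAs from Rn7sk to Rny3 was 4.88 ± 1.505 in RA and 1.36 ± 0.0854 in DMSO, and the 3 of them that were tested were called higher. The 5 ESC markers summed to 2285 to 2338 in RA and 4427 to 4592 in DMSO, and the 5 primitive endoderm markers to 51.5 to 55.8 and 7.73 to 8.67. Their part in the tRNA values was not tested.

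In Dux KD RA the copied mRNAs stood above their level in RA, and the rRNA and tRNA genes below. Against RA, the 6 copied mRNAs were called higher, mt-Nd2 was called lower, and both rRNAs and 12 of 15 tRNA genes were called lower. In this comparison 10.9% of all genes tested were called (6.41% higher and 4.54% lower). mt-Atp6 was at 524 and 483 in Dux KD RA and 82.5 and 95.3 in RA (2.50 ± 0.30, adjusted p = 2.51e-07), and mt-Co3 at 407 and 363 against 90.3 and 92.8 (2.07 ± 0.20). With the copies added in, the differences were 1.98 for mt-Atp6, 1.95 for mt-Co3 and 1.39 for mt-Co2. They were 0.98 for mt-Nd4l and only 0.26 for mt-Nd3, both short of the fold of a call. The copy's share of the mt-Nd3 pair was 51.8% and 54.6% in Dux KD RA and 80.3% and 77.6% in RA. Among the uncopied genes mt-Nd2 fell from 3198 and 3847 to 1522 and 1487 (-1.23 ± 0.09), mt-Co1 was at 7558 and 7625 (-0.80 ± 0.09) and mt-Cytb at 3628 and 3635 (0.18 ± 0.15). Without 1 library of the 4, the number of mRNAs called was 5 to 7. mt-Atp8 lost its call without RA replicate 1, without RA replicate 2 or without Dux KD RA replicate 1, and mt-Nd4l without RA replicate 1.

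mt-Rnr1 was at 165 and 159.9 in Dux KD RA against 437 and 514 in RA (-1.55 ± 0.14) and mt-Rnr2 at 354 and 368 against 1105 and 1217 (-1.68 ± 0.10), both also below DMSO. mt-Tn was at 2.93 and 2.18, mt-Tc at 2.35 and 2.94 and mt-Tp at 19.2 and 20.6, against 28.8 and 32.8, 27.2 and 31.9 and 60.7 and 69.2 in RA. mt-Ta had 0 and 0 counts in Dux KD RA and 17 and 13 in RA, at least 3.88-fold lower. SE KO RA was compared with RA in the same way. Of the 13 mRNAs 1, mt-Nd4l, was called lower (-1.01 ± 0.33), of the rRNAs none, and of the tRNA genes 1 was called higher (mt-Tl2) and 2 lower (mt-Tl1 and mt-Te), and 17.6% of all genes tested were called (6.57% higher and 11.0% lower). The call of mt-Nd4l was lost without RA replicate 2 or SE KO RA replicate 2, with the replicate block and with DESeq2, which called 0 mRNAs. Without SE KO RA replicate 1, the library with conflicting labels, 1 mRNA and 1 tRNA gene were called lower, and without RA replicate 2, 1 tRNA gene was. In edgeR 6 mRNAs and 1 rRNA had an adjusted p under 0.05, and both rRNAs had an unadjusted p under 0.05. mt-Cytb was at 2006 and 1973 in SE KO RA against 3168 and 3241 in RA (-0.69 ± 0.15, adjusted p = 0.000574), and mt-Nd1 at 3266 and 3146 against 5289 and 6405 (-0.87 ± 0.12), so both were lower without reaching the fold of a call. mt-Tn and mt-Tc in SE KO RA, at 15.6 and 21.3 and at 19.2 and 18.99, lay between their levels in DMSO and RA.

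Against DMSO, again chosen after seeing the data, Dux KD RA had 5 mRNAs called higher, all of them copied, mt-Rnr1 called lower (-1.15 ± 0.14) and 10 tRNA genes called lower, and 31.9% of all genes tested were called. SE KO RA had 2 mRNAs called lower than in DMSO, mt-Cytb (-1.07 ± 0.15) and mt-Atp6 (-1.11 ± 0.29), no rRNA at an unadjusted p under 0.05 in edgeR, and 3 tRNA genes called higher, and 27.1% of all genes tested were called.

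The difference of Dux KD or SE KO cells from cells given the drug alone, called their effect here, was not the same with PlaB as with RA. No Dux KD or SE KO group without drug or transgene was there to set either effect against. The difference between the effects was tested as an interaction, and both tests share the PlaB and RA libraries. For Dux KD, 12 of 13 mRNAs were called higher in the PlaB effect than in the RA effect, where 52.2% of all genes were called. For SE KO all 13 were, where 49.0% were called. mt-Cytb differed between the effects by 4.36 ± 0.23 for Dux KD and by 5.66 ± 0.23 for SE KO on the log2 scale. For mt-Atp8 the difference under Dux KD was 1.20 and did not pass (adjusted p = 0.0838).

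The transgenes were compared with untreated ESCs, and these comparisons share the ESC libraries. Zscan4 OE, Dux OE, DuxR70A OE and SE KO Dux OE cells received doxycycline and ESCs did not. Effects of a transgene and of doxycycline therefore cannot be told apart in comparisons with ESC. Zscan4 OE had 2 mRNAs called higher (mt-Atp6 and mt-Co3, both copied), 2 called lower (mt-Nd4 and mt-Nd6) and 8 of 15 tRNA genes called lower. No rRNA was called by edgeR, although both had an adjusted p under 0.05 and missed only the fold. Of all genes tested 11.6% were called (7.25% higher and 4.39% lower). mt-Nd4 was at 994 and 961 against 2162 and 2103 in ESC (-1.13 ± 0.08, adjusted p = 2.94e-11) and mt-Nd6 at 317 and 346 against 722 and 736 (-1.14 ± 0.12). mt-Co3 was at 73.7 and 66.7 against 14.4 and 17.5 (2.14 ± 0.24), but against DMSO it was lower (-0.86), and DMSO itself was higher than ESC in this gene. The calls of mt-Nd4 and mt-Nd6 were lost, with the direction kept, when libraries were scaled by their size only (-0.97 and -0.98). mt-Tp was at 13.1 and 9.50 against 37.5 and 36.4 (-1.72 ± 0.19) and mt-Tn at 3.30 and 3.15 against 12.9 and 10.6 (-1.87 ± 0.31), so both fell, while mt-Tc (-0.41 ± 0.20) and mt-Tl1 (-0.09 ± 0.26) did not pass. Without ESC replicate 1, Zscan4 OE replicate 1 or Zscan4 OE replicate 2, 5 tRNA genes were called, all lower.

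The libraries labelled Dux KD Zscan4 OE differed from Zscan4 OE in 2 mRNAs called higher (mt-Co2 and mt-Nd3, both copied), no rRNA called and 1 tRNA gene called higher (mt-Tn), and 11.1% of all genes tested were called (5.78% higher and 5.35% lower). Both rRNAs had an adjusted p under 0.05 in edgeR and missed only the fold. With the copies added in, mt-Co2 differed by 0.93 and mt-Nd3 by 0.63, and neither was called. mt-Nd4 (0.75 ± 0.08) and mt-Nd6 (0.75 ± 0.12) were higher without reaching the fold of a call. The labels give doxycycline for Zscan4 OE and none for Dux KD Zscan4 OE, so knockdown and doxycycline cannot be told apart here. The Dux KD Zscan4 OE libraries differed in mt-Cytb (5307 and 8017) and mt-Tn (11.6 and 4.51). Without its replicate 1, 1 mRNA and 0 tRNA genes were called, and without its replicate 2, 1 tRNA gene was called higher and 1 lower.

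Dux OE was compared with ESC next. Of the 13 mRNAs 1, mt-Nd4l, was called higher, and no rRNA or tRNA gene was called by edgeR, and 9.51% of all genes tested were called (7.38% higher and 2.12% lower). An unadjusted p under 0.05 was reached in edgeR by 7 mRNAs, 2 rRNAs and 5 tRNA genes, and an adjusted one by 4, 2 and 3. DESeq2 called 0 mRNAs and 0 tRNA genes. mt-Nd4l was at 21.6 and 5.81 against 6.22 and 6.13, so the call rested on Dux OE replicate 1. Without it 0 mRNAs were called and the log2 fold change of mt-Nd4l was -0.11. Without Dux OE replicate 2, 2 mRNAs were called higher, without ESC replicate 1, 1 was called lower, and without ESC replicate 2, 0 were called. With DMSO as the control 4 mRNAs were called, all lower, and mt-Co3 (-2.15), mt-Nd3 (-1.56) and mt-Nd4l (-0.84) had the opposite sign. Without ESC replicate 2 or Dux OE replicate 1, 1 tRNA gene was called lower. mt-Co1 was at 12272 and 11505 against 14806 and 13960.1 (-0.27 ± 0.09), mt-Cytb at 4687 and 4521 against 4062 and 4110.2 (0.17 ± 0.15) and mt-Rnr1 at 391 and 374 against 257 and 251 (0.59 ± 0.14).

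In the libraries labelled DuxR70A OE the 7 uncopied mRNAs were lower than in ESC at an adjusted p under 0.05, and 1 of them passed the fold of a call. The copied mRNAs had a median log2 fold change of 0.41, and of these mt-Nd3 was higher (0.72, adjusted p = 0.029) and mt-Co2 lower (-0.56, adjusted p = 0.00612), neither called. mt-Nd1 was called lower, as were 3 tRNA genes (mt-Ty, mt-Te and mt-Tp), and 16.9% of all genes tested were called (10.2% higher and 6.72% lower). Neither rRNA was called, 1 having an adjusted p under 0.05 in edgeR. mt-Nd1 was at 3089 and 2997 against 6996 and 7396 (-1.24 ± 0.12, adjusted p = 2.19e-09) and mt-Co1 at 7871 and 7064 against 14806 and 13960.1 (-0.95 ± 0.09). mt-Tp was at 18.3 and 13.6 against 37.5 and 36.4 (-1.21 ± 0.18). With libraries scaled by their size only, 2 tRNA genes were called higher and 1 lower. With DuxR70A OE replicate 1 left out, 2 mRNAs were called lower than in ESC, and with replicate 2 left out, 1 was called higher and 1 lower. Against Dux OE, mt-Atp6 was called higher and mt-Nd4l lower, both copied genes, and 1 tRNA gene, mt-Ty, was called lower, and 13.6% of all genes tested were called (6.11% higher and 7.51% lower). Neither rRNA was called, and both had an adjusted p under 0.05 in edgeR without the fold. Without Dux OE replicate 1 neither mRNA was called, and without DuxR70A OE replicate 2 it was 1. With libraries scaled by their size only, 2 tRNA genes were called higher and 1 lower here too. With copies added in, the 2 genes differed by 0.62 and -0.21 and were not called. mt-Nd1 differed from Dux OE by -0.98 ± 0.12 and mt-Co1 by -0.67 ± 0.09, with no overlap between the libraries.

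Against ESC, chosen after seeing the data, the libraries labelled Dux KD Zscan4 OE had 5 mRNAs called higher, all of them copied, and 4 tRNA genes called lower, and 8.11% of all genes tested were called. Of the 7 uncopied mRNAs 4 were lower at an adjusted p under 0.05 without reaching the fold. The mt-Nd3 pair of gene and copy was at 50.7 and 61.7 CPM (raw library totals) in these libraries and 67.04 and 53.8 in ESC, and the mt-Nd4l pair at 20.4 and 35.8 and 27.8 and 24.5, so for both pairs the libraries of the 2 groups overlapped. Neither rRNA was called in edgeR, and both had an adjusted p under 0.05 but fell just short of the fold (0.99 ± 0.14 for mt-Rnr1 and 0.99 ± 0.10 for mt-Rnr2).

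SE KO cells with Dux OE had almost no counts on mitochondrial tRNA genes, while the share of mitochondrial mRNAs overlapped between the 2 groups. Against Dux OE, 13 of the 15 tRNA genes were called lower and none higher, and 6.30% of all genes tested were called (2.46% higher and 3.84% lower). DESeq2 called 10 of the tRNA genes. Some of these genes had few reads in Dux OE too: mt-Ti was at 0.242, mt-Tm at 0.351 and mt-Tr at 0.281 normalised CPM there. Against a floor of 3 counts per library they were at least 2.72-, 3.95- and 3.16-fold lower. mt-Tp was called lower as well but kept its counts, and its gene is printed here for that reason, beside mt-Tn. It had 462 and 397 counts in SE KO Dux OE and 365 and 380 in Dux OE. The other 21 tRNA genes had 0 counts in both SE KO Dux OE libraries, apart from mt-Tn with 0 and 1 and mt-Tq with 0 and 4. mt-Td is shown as a tRNA gene inside the copied stretch, which had at most 3 counts in any library.
mt-Tp: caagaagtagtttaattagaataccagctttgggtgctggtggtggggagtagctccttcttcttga
mt-Tn: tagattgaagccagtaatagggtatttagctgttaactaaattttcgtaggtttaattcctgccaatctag
mt-Td: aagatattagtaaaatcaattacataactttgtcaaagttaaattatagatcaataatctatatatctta

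mt-Th, mt-Tl2, mt-Ts2, mt-Tc and mt-Tl1 are the tRNA genes with the highest levels among those at 0 there. Their counts in the 2 Dux OE libraries were 228 and 164, 104 and 111, 95 and 93, 81 and 89 and 50 and 58. Against a floor of 3 counts per library, the level of mt-Th lay at least 156-fold lower than with Dux OE alone, that of mt-Tl2 at least 84.8-fold, mt-Ts2 at least 74.3-fold, mt-Tc at least 67.05-fold and mt-Tl1 at least 42.6-fold. mt-Tp was at 12.3 and 12.98 normalised CPM against 26.6 and 25.7 (-1.05 ± 0.18, adjusted p = 0.000128). Against ESC, a comparison chosen after seeing the data, 13 tRNA genes were also called lower, and 12.9% of all genes tested were called. The SE KO Dux OE libraries were the deepest of the 26, with 39402840 and 32990350 counts and a floor of 0.0888 normalised CPM. Intervals and floors cover counting error only. In the other SE KO groups mt-Tc was at 19.2 and 18.99 (RA) and 11.3 and 14.5 (PlaB).

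Short nuclear genes as a group were not at 0 in these libraries. The 2431 nuclear genes with an exon length of up to 100 bases held 248 ± 36.5 CPM in SE KO Dux OE and 552 ± 48.1 in Dux OE, within the 172 ± 16.9 (DMSO) to 6228 ± 3059 (Dux KD Zscan4 OE) of the series, and 227 and 288 of them had counts in the 2 libraries. Among the nuclear genes of the mitochondrial RNA machinery, Slirp, a partner of Lrpprc in the stability of mitochondrial mRNA, was at 0.155 ± 0.0807 normalised CPM in SE KO Dux OE and 4.58 ± 0.741 in Dux OE (-4.77 ± 0.40, adjusted p = 2.81e-09). The part of Slirp in the tRNA counts was not tested.

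No mRNA or rRNA gene of the same SE KO Dux OE libraries was called lower than in Dux OE. Of the copied mRNAs 3 were called higher than in Dux OE (mt-Atp6, mt-Co3 and mt-Nd3). With the copies added in, mt-Atp6 (2.29) and mt-Co3 (1.06) kept their call, mt-Nd3 (0.89) lost it and mt-Co2 (1.22) gained one. Of the uncopied mRNAs mt-Nd4 (-0.46), mt-Nd5 (-0.46) and mt-Nd6 (-0.61) were lower at an adjusted p under 0.05 without reaching the fold, and the copied mt-Atp8 was at -0.96 and did not pass (adjusted p = 0.164). mt-Co1 was at 11119 and 12904 against 12272 and 11505 (0.01 ± 0.09, adjusted p = 0.937), so the libraries overlapped, and mt-Nd1 at 6417 and 7049 against 6264 and 5748 (0.16 ± 0.12). mt-Rnr2 was called higher, at 1125 and 1302 against 375 and 374 (1.70 ± 0.10), and mt-Rnr1, at 602 and 749 against 391 and 374, was higher by 0.82 ± 0.14. The 4 markers of feeder fibroblasts summed to 103 to 104 normalised CPM in SE KO Dux OE, the highest of the series, and to 9.44 to 12.5 in PlaB. Most of that highest sum was Thy1 (66.7), which was also at 23.1 in ESC and 41.9 in Dux OE. Col1a2 (19.9) and Col3a1 (3.66) were highest in SE KO Dux OE too, but Col1a1 was higher in SE KO RA (22.9 against 12.9). Their part in these results was not tested.

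**Figure D3:**
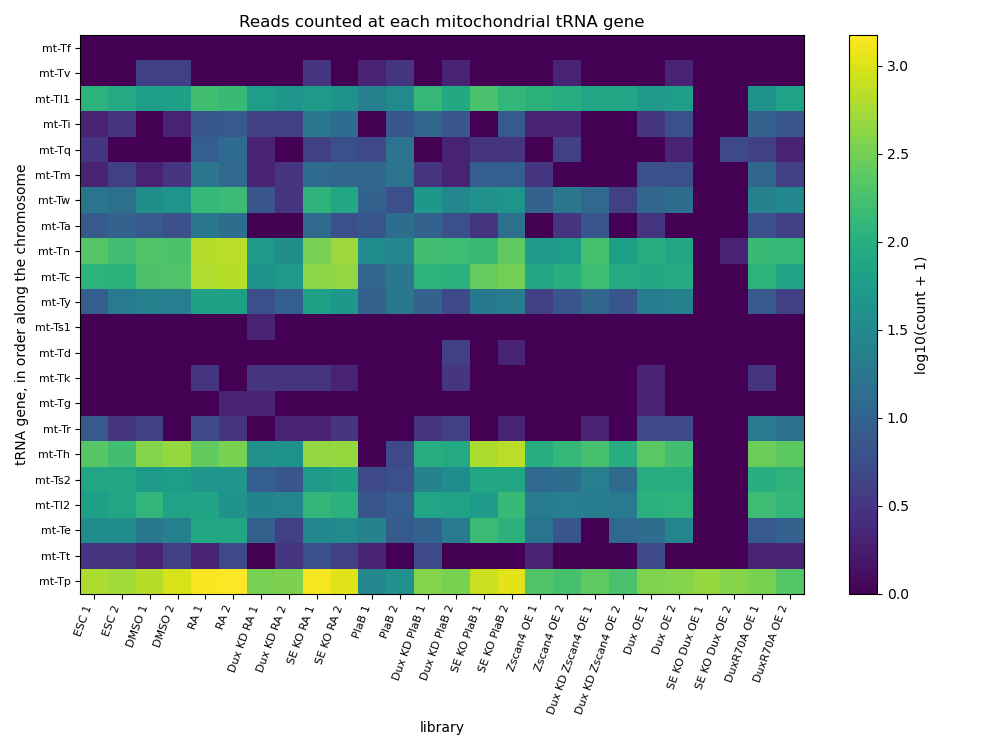
Counts of the 22 tRNA genes (rows, in chromosome order) in each of the 26 libraries (columns), coloured by log10 of the count plus 1. In both SE KO Dux OE libraries the mt-Tp row keeps its colour while the other rows are at or near 0, and the 5 tRNA genes of the copied stretch have at most 20 counts.

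The 2 control groups differed in the copied genes. In DMSO against ESC, 5 of 13 mRNAs were called higher, mt-Co2, mt-Atp6, mt-Co3, mt-Nd3 and mt-Nd4l, and all 5 are copied genes. In this comparison 16.2% of all genes tested were called (8.32% higher and 7.91% lower), and no uncopied mRNA was called. mt-Co3 was at 114 and 141 in DMSO and 14.4 and 17.5 in ESC (3.00 ± 0.24, adjusted p = 1.09e-10), mt-Co2 at 229 and 334 and 94.5 and 80.4 (1.69 ± 0.16) and mt-Atp6 at 122 and 134 and 26.4 and 45.8 (1.83 ± 0.31). With copies added in, these 3 kept their call (2.01, 1.98 and 2.32), while mt-Nd3 (0.62) and mt-Nd4l (0.84) lost it. The uncopied genes ranged from -0.38 (mt-Nd4) to 0.09 (mt-Nd2), with mt-Co1 at 13668 and 13876 and 14806 and 13960.1. Neither rRNA was called, and both had an adjusted p under 0.05 in edgeR without the fold (0.50 for mt-Rnr1 and 0.40 for mt-Rnr2). Of the tRNA genes 1, mt-Tw, was called higher. Without DMSO replicate 1, 2 tRNA genes were called higher, without DMSO replicate 2, 0 were called, and without ESC replicate 2, 1 was called lower. Of all groups, 5 of the copied genes (all but mt-Atp8) stood highest in Dux KD PlaB and Dux KD RA, with mt-Atp6 at 625 and 748 and 524 and 483 normalised CPM and mt-Nd3 at 50.3 and 61.6 and 54.3 and 42.7. The copy's share of the mt-Nd3 pair was 62.3% and 58.3% in Dux KD PlaB and 94.7% and 94.3% in ESC, whereas that of the mt-Co2 pair was 40.8% and 40.6% and 22.7% and 22.6%.

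**Figure D4:**
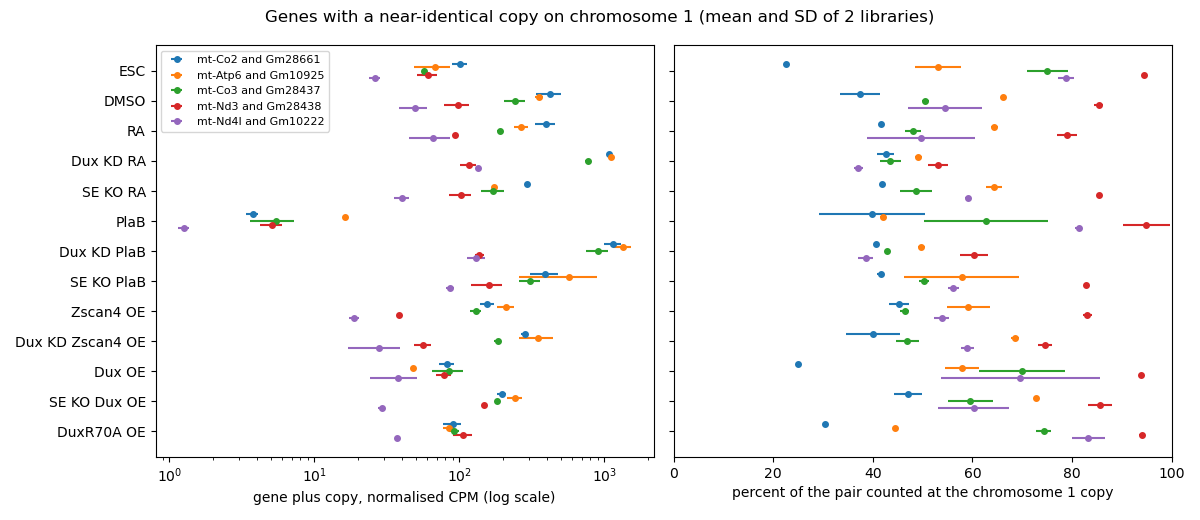
Left, summed CPM (raw library totals, without TMM factors) of 5 copied genes and their chromosome 1 copies (log axis). The axis label reads normalised CPM. Right, percentage of the pair assigned to the copy. Rows are groups, points means and bars the SD of 2 libraries. The pairs are highest in Dux KD PlaB and Dux KD RA except for mt-Nd3, whose copy takes the largest share in most groups.

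The make-up of the mitochondrial mRNA differed between groups as well. mt-Co1 held 32.7% to 57.4% of all mitochondrial mRNA counts, with the highest values in PlaB (55.2 and 57.4%) and SE KO RA (55.1 and 53.96%). mt-Nd4 held 17.0% in PlaB and 3.91% to 8.50% in the other groups (group means), and mt-Cytb 3.35% in PlaB and 7.89% to 20.3% elsewhere. Per kilobase of gene, in DMSO, mt-Co1 was at 8914 ± 94.8 normalised CPM per kb, mt-Nd1 at 6210.1 ± 8.49, mt-Cytb at 3659 ± 74.7, mt-Nd2 at 2617 ± 43.02, mt-Nd5 at 1502 ± 5.54, mt-Nd6 at 1215 ± 12.9 and mt-Nd4 at 1192 ± 1.78. The copied genes were lower on the same scale, from 412 ± 108 for mt-Co2 to 8.31 ± 1.54 for mt-Atp8. mt-Nd6, the single mRNA gene on the minus strand, had 0.124 to 0.147 counts per count of its neighbour mt-Nd5 in PlaB and 0.193 to 0.278 in the other 24 libraries.

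**Figure D5:**
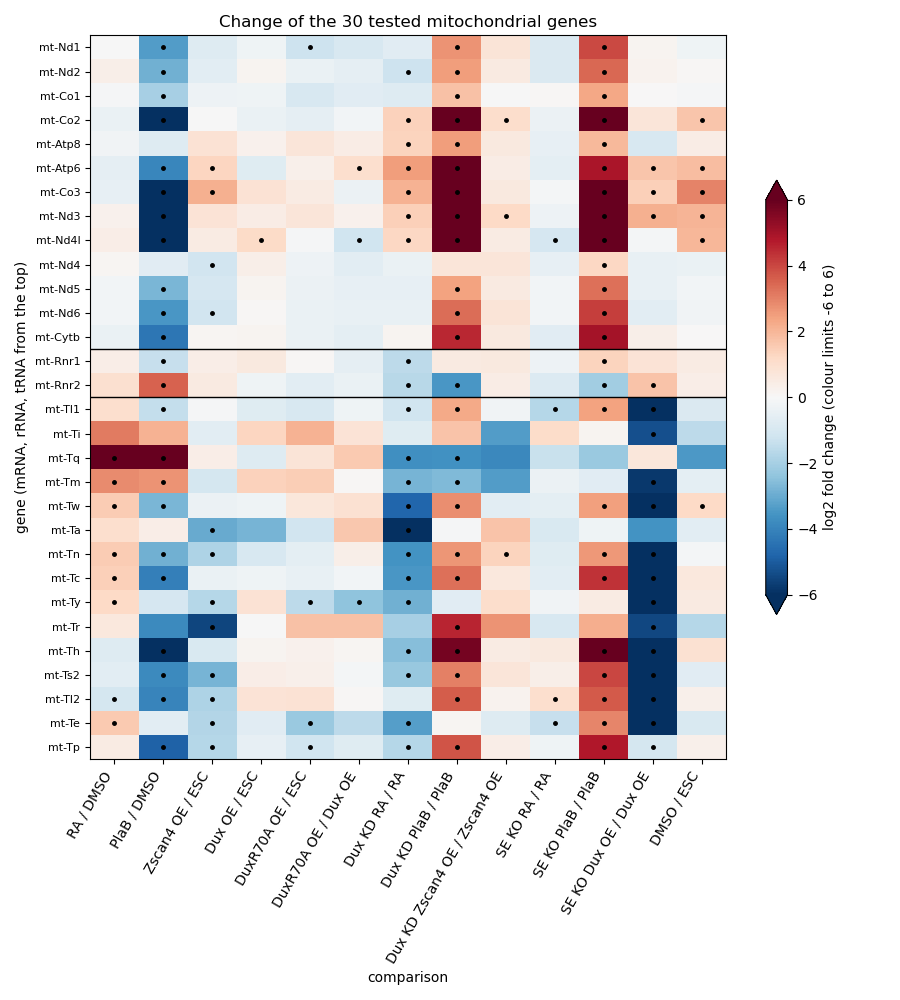
Log2 fold changes of the 30 tested genes (rows) in 13 comparisons (columns), blue lower and red higher, colour limits -6 to 6, with a dot where the gene was called. PlaB against DMSO is blue for the mRNAs and red for mt-Rnr2, and in SE KO Dux OE against Dux OE 13 tRNA genes are called lower; fitted values of genes at 0 there depend on the prior count.

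The nuclear genes that serve mitochondrial RNA were counted from a list of 38 genes of transcription, RNA processing and replication, and 26 genes for nuclear-encoded subunits of the same respiratory complexes. In PlaB against DMSO, 12 of 26 subunit genes were called higher and none lower, against 32.3% of all genes tested called higher (median log2 fold change 0.98, over all genes 0.22). The mitochondrially encoded subunits of the same complexes were lower in the same libraries. In Dux KD PlaB and SE KO PlaB against PlaB, 10 and 13 of the 26 were called lower and none higher, where 28.8% and 26.1% of all genes tested were called lower. Of the 38 machinery genes, 7 were called higher and 10 lower in PlaB, where 32.3% of all genes tested were called higher and 26.6% lower, so neither count stands above the background. Polrmt, the mitochondrial RNA polymerase, was called higher (1.51 ± 0.12), as was Slirp (1.60 ± 0.22), while Tfam (0.22 ± 0.07) and Lrpprc (-0.65 ± 0.08) were not called. Among those called, the largest changes were of Ppargc1b (-3.68) and Esrra (-3.20), which regulate nuclear genes of mitochondrial function.

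In RA 6 machinery genes were called lower and 1 higher, Ppargc1a, a coactivator of mitochondrial biogenesis (7.12), and 2 of the 26 subunit genes lower, where 20.6% of all genes tested were called higher and 10.4% lower. Slirp fell in RA (-1.48 ± 0.25), and Tfam (-0.50 ± 0.07) and Lrpprc (-0.55 ± 0.08) were lower without being called. In SE KO RA against RA, Lrpprc differed by -0.70 ± 0.08 and Tfam by -0.44 ± 0.08, and 1 machinery gene was called higher and 3 lower, where 6.57% and 11.0% of all genes were. In DuxR70A OE against ESC 6 machinery genes were called lower and none higher, where 6.72% of all genes were called lower, among them Elac2, which cuts the 3′ ends of tRNAs (-1.37), and Tbrg4 (-1.15). In SE KO Dux OE against Dux OE, Slirp was the only one of the 38 called, where 6.30% of all genes were.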

How the data were processed

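The authors sequenced poly(A)-selected RNA of 26 libraries and deposited counts of reads per gene. Per the labels, their processing notes name FastQC, Trimmomatic, STAR, featureCounts, DESeq2 and the mm10 build, without versions. The strand and multi-mapping settings are not given in the sources used here.
The deposited counts were tested for all genes in edgeR 4.0.16 (limma 3.58.1, R 4.3.3) with TMM scaling, the default filterByExpr filter, 1 quasi-likelihood model of 13 groups and Benjamini-Hochberg adjustment over 20953 of 55291 genes (common biological coefficient of variation 0.0833, prior count 0.125). Calls needed an adjusted p under 0.05 and a log2 fold change of 1 or more either way. DESeq2 1.42.0 was an alternative.
Of the 37 mitochondrial genes 30 passed the filter (13 mRNA, 2 rRNA and 15 tRNA); mt-Tf had 0 counts in all 26 libraries. Levels are TMM-normalised CPM, and class shares are percentages of the raw library total (14401452 to 39402840 counts). Widest 95% Wilson half-widths were 0.00915, 0.00404 and 0.000598 percentage points for the mRNA, rRNA and tRNA shares, for counting error only.
Named were all mRNA and rRNA genes, the 8 tRNA genes with the highest mean level, at most 2 called machinery genes a comparison and Polrmt, Tfam, Lrpprc and Slirp; other tRNA genes were named after their values were seen. The members, lists and tests were chosen with earlier results of these data known. Replicate numbers did not pair the samples: the correlation of same-numbered deviations was -0.125 to 0.0464 over 13 comparisons. The tests were checked on simulated counts.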

Additional observations from a re-analysis of the deposited data

Results flagged for a closer look

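The effect of Dux KD under PlaB and under RA differed in 12 of the 13 mRNA genes and in 2 of the 2 rRNA genes by a test of the difference itself. The effect of SE KO under the same drugs differed in 13 of the 13 mRNA genes and 2 of the 2 rRNA genes. Both tests share the PlaB and the RA libraries, and over all genes tested 52.2% and 49.0% were called.
For mt-Co1 the effect under PlaB minus that under RA was 2.57 ± 0.13 (log2, ± SE) for Dux KD and 2.24 ± 0.13 for SE KO. For mt-Cytb it was 4.36 ± 0.23 and 5.66 ± 0.23, and for mt-Rnr2 -1.79 ± 0.14 and -1.27 ± 0.14. No group has more than 2 libraries, so single libraries were not tested for standing apart from their group.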

How the results depend on the processing

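Over 12 alternatives (other scalings, no filter, a 2-group fit, the replicate block, DESeq2, copies summed or 1 library left out, the lone sample then being assumed to vary like the other groups), the number of mRNA genes called was 11 in PlaB against DMSO, 12 in Dux KD PlaB and 13 in SE KO PlaB against PlaB, 3 in SE KO Dux OE against Dux OE and 0 in RA against DMSO each time. In SE KO Dux OE the genes were not the same with copies summed, mt-Co2 being called in place of mt-Nd3. Summing the copies and using DMSO or ESC as the other control were partly chosen after seeing the data.
Replicate numbers did not pair the samples; with the replicate block the mRNA count in SE KO RA against RA was 0, and 14 other counts stayed within 1.5 times. That count was also 0 with no low-count filter, in the 2-group fit, with DESeq2 and with copies summed. Dux OE against ESC had 0 with DESeq2 and 0 with copies summed. Of the tRNA genes in SE KO Dux OE against Dux OE, edgeR called 13 and DESeq2 10.
With copies summed, DuxR70A OE against Dux OE had 0, Dux KD Zscan4 OE against Zscan4 OE 0 and DMSO against ESC 3. With library size only, Zscan4 OE against ESC had 2, DuxR70A OE against Dux OE 1 and Dux KD Zscan4 OE against Zscan4 OE 1, which also had 1 with no filter; tRNA calls changed their main direction in DuxR70A OE against ESC (3, of which 2 higher) and against Dux OE (3, of which 2 higher). Library size only moved the median of all genes in PlaB against DMSO from 0.22 to 0.48 and the percentage of calls that were higher from 66.5 to 76.7 in RA, from 62.3 to 76.6 in Zscan4 OE, from 60.4 to 77.5 in DuxR70A OE against ESC and from 44.8 to 58.9 against Dux OE.
With no minimum fold the mRNA counts were 4 (RA), 9 (Zscan4 OE), 4 (Dux OE), 9 and 9 (DuxR70A OE against ESC and Dux OE), 12 (Dux KD RA), 9 (Dux KD Zscan4 OE), 6 (SE KO RA) and 7 (SE KO Dux OE).
With DMSO as control, 4 were called in Dux OE, all lower, and 5 in DuxR70A OE, and signs turned in Zscan4 OE for mt-Atp6 (-0.56), mt-Co3 (-0.86), mt-Nd3 (-1.22) and mt-Nd4l (-1.48), in Dux OE for mt-Co3 (-2.15), mt-Nd3 (-1.56) and mt-Nd4l (-0.84) and in DuxR70A OE for mt-Atp6 (-1.52), mt-Co3 (-2.49) and mt-Nd3 (-1.31). With ESC as control, RA had 5, and mt-Co2 (1.29), mt-Atp6 (1.30) and mt-Co3 (2.52) turned. Without Dux OE replicate 1, mt-Nd4l turned against ESC (-0.11) and in DuxR70A OE against Dux OE (0.039); without Dux OE replicate 2 it was 1.76 and -1.84.
Leaving out 1 library gave mRNA counts of 4 to 6 in Zscan4 OE, 0 to 2 in Dux OE, 1 to 2 in DuxR70A OE against ESC and 0 to 2 against Dux OE, 5 to 7 in Dux KD RA, 0 to 1 in SE KO RA and 1 to 2 in Dux KD Zscan4 OE, and tRNA counts of 5 to 9 in RA, 5 to 6 in Zscan4 OE, 0 to 1 in Dux OE, 1 to 3 in SE KO RA, 0 to 2 in Dux KD Zscan4 OE and 0 to 2 in DMSO against ESC (1 lower without ESC replicate 2). The causes were not tested.
With counts outside the mitochondrial genes as denominator, the mRNA share was 3.15% (ESC), 3.12% (DMSO), 2.47% (Dux KD RA), 2.92% (Dux KD PlaB), 2.54% (Zscan4 OE) and 2.18% (DuxR70A OE), the rRNA share 0.0645% (ESC), 0.0604% (Dux KD RA), 0.0829% (Dux KD PlaB), 0.214% (SE KO PlaB) and 0.0716% (Dux OE), and the tRNA share 0.00390% (Dux KD RA), 0.00124% (SE KO Dux OE) and 0.00705% (DuxR70A OE). Of 2415 single-gene values under alternatives, 2335 kept whether the gene was called, with the same sign where it was called. A turn of sign in a gene called in neither setting was not counted as a change. Depth limits 7 tRNA genes with at most 5 counts in any library.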
